A study of Mus musculus with 6 samples.

Results

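The genes described here encode the machinery that builds ribosomes: the transcription factor Myc, subunits of RNA polymerase I, the proteins of the small nucleolar ribonucleoprotein particles (snoRNPs), factors that process the precursors of the small and the large ribosomal subunit, and abundant proteins of the nucleolus. A list of 42 gene symbols was searched among 45101 probe sets of Affymetrix mouse arrays, keeping probe sets annotated with a single gene symbol. Each gene's probe set was chosen by its mean log2 signal over all 6 arrays, the highest being kept. Of the 42 genes, 41 had such a probe set, among 18194 genes represented in the same way. Mrto4 was left without a value because its probe set names several genes. All 41 passed the filter on dim genes, which kept 10916 genes for testing, and none lay at or under the background level of 24.5 on any array.

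RNA was measured in ovarian surface epithelial cells from mouse tumours, the cell type that covers the ovary, which were freed with trypsin, grown in serum-containing medium with insulin, transferrin and selenium, and collected before any passage. The 3 groups of 2 arrays held cells with wild-type p53, cells with wild-type p53 together with the R172H mutant (heterozygous), and cells homozygous for R172H, a missense change in the DNA-binding region of p53. All 6 sample titles carry the prefix P/K, which the labels do not spell out, and a mixed strain background is given for all 6 samples. Ages were 9 weeks for both wild-type samples, 9 and 12 weeks for heterozygous arrays 1 and 2, and 4 weeks for the homozygous samples. Homozygosity and age therefore cannot be told apart. In a separate label field the homozygous samples name a related gene instead of p53, and their titles were followed. Nothing in the labels says that the arrays of a group came from separate animals, so p-values measure only the spread between these arrays.

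Ribosome production begins in the nucleolus, where RNA polymerase I transcribes the ribosomal RNA precursor. Box C/D snoRNPs guide methylation of that RNA and box H/ACA snoRNPs guide the conversion of uridine to pseudouridine, while assembly factors cut and fold it into the precursors of both subunits. MYC is known to activate many of these genes, and demand for ribosomes is high in growing tumour cells.

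Regions around the start of transcription are shown first, since the genes had differences of the same sign between homozygous and wild-type cells. RefSeq promoter windows (build GRCm38.p6, from 250 bases before to 50 after the start) were matched by symbol for 33 of the 41 genes, in 36 windows since a gene can have several, and not for Bop1, Fbl, Myc, Nol6, Npm1, Rrp12, Rrs1 and Utp6. Each window was searched on both strands for CACGTG, the E-box read by MYC and other factors of its class, and for CCGGAAGT, a motif read by ETS-family factors, whose opposite strand is ACTTCCGG. The second motif was chosen after these sequences had been seen. The lines below give the 130 bases from 100 before to 30 after the start for 3 genes with an E-box, for 5 more with the ETS-type motif, and for Polr1a and Wdr75, which hold neither, with motifs in capitals.
Nop2 (chr6:125131783-125131912, plus strand): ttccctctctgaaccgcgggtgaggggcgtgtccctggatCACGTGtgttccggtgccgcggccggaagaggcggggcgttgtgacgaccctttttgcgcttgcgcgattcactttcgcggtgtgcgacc
Pes1 (chr11:3963875-3964004, plus strand): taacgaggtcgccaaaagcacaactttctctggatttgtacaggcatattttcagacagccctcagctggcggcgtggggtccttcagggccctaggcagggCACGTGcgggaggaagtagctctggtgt
Tsr1 (chr11:74897980-74898109, plus strand): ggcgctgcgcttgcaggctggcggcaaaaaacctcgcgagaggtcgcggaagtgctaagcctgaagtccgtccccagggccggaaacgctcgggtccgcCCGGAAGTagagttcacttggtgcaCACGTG
Brix1 (chr15:10485908-10486037, minus strand): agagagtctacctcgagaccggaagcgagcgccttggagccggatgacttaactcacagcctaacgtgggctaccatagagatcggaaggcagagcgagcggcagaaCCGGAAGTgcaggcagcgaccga
Ebna1bp2 (chr4:118620699-118620828, plus strand): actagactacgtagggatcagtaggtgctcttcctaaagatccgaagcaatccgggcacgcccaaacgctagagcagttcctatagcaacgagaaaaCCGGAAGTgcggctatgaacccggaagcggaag
Nhp2 (chr11:51619673-51619802, plus strand): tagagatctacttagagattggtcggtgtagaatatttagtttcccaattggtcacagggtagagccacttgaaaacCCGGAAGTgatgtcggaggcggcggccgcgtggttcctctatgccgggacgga
Gar1 (chr3:129831367-129831496, minus strand): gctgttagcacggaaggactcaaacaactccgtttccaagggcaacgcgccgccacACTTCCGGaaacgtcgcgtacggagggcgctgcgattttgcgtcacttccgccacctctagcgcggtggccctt
Polr1c (chr17:46248016-46248145, minus strand): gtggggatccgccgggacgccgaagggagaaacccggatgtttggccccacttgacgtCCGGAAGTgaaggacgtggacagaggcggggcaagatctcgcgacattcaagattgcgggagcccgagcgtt
Polr1a (chr6:71908953-71909082, plus strand): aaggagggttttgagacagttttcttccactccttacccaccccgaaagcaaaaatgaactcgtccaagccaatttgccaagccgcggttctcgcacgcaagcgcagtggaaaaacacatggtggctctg
Wdr75 (chr1:45795066-45795195, plus strand): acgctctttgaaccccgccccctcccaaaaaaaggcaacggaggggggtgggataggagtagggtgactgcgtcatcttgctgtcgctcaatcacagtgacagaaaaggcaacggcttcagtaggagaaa

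Counted per gene over its windows, 6 of the 33 genes had an E-box, or 18.2%, compared with 8.1% of 27025 genes with a window and 12.2% of 8891 tested genes. The genes were Nop2, with the motif beginning 60 bases before the start, Nol11 at 43 bases before it, and Pes1, Wdr43, Tsr1 and Utp20 at positions 3, 18, 25 and 38 of the transcript. The ETS-type motif was present for 10 of the 33 genes, or 30.3%, compared with 4.3% of all genes with a window and 9.4% of the tested genes. Its carriers were Brix1, Ebna1bp2, Gar1, Heatr1, Nhp2, Nol10, Polr1c, Polr1e, Rrp15 and Tsr1. Tsr1 held both motifs, and 18 genes held neither. The median GC content was 58.0% in these windows and 61.3% in those of all tested genes. Of 74 other ribosome biogenesis genes with a window, 18.9% had the E-box and 32.4% the ETS-type motif. A match describes the letters of a window and is not evidence of a bound factor.

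Taken by their median, the ribosome biogenesis genes lay close together on the wild-type and heterozygous arrays and higher on the homozygous arrays, with Nop10 as an exception whose groups overlapped. The median log2 signal relative to the mean of the wild-type arrays was -0.02 and 0.02 on the wild-type arrays, 0 and -0.04 on the heterozygous arrays, and 1.54 and 1.13 on homozygous arrays 1 and 2. Homozygous array 1 gave the highest signal of 36 genes and homozygous array 2 that of the remaining 5. The lowest signal fell on a wild-type array for 16 genes, with 13 on array 1 and 3 on array 2, and on a heterozygous array for 25, with 9 on array 1 and 16 on array 2. The list had been drawn up with results of these arrays known, so its shift in homozygous cells is a description. Signals are bulk values, in which more cells of a type and more RNA per cell cannot be told apart.

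**Figure D1:**
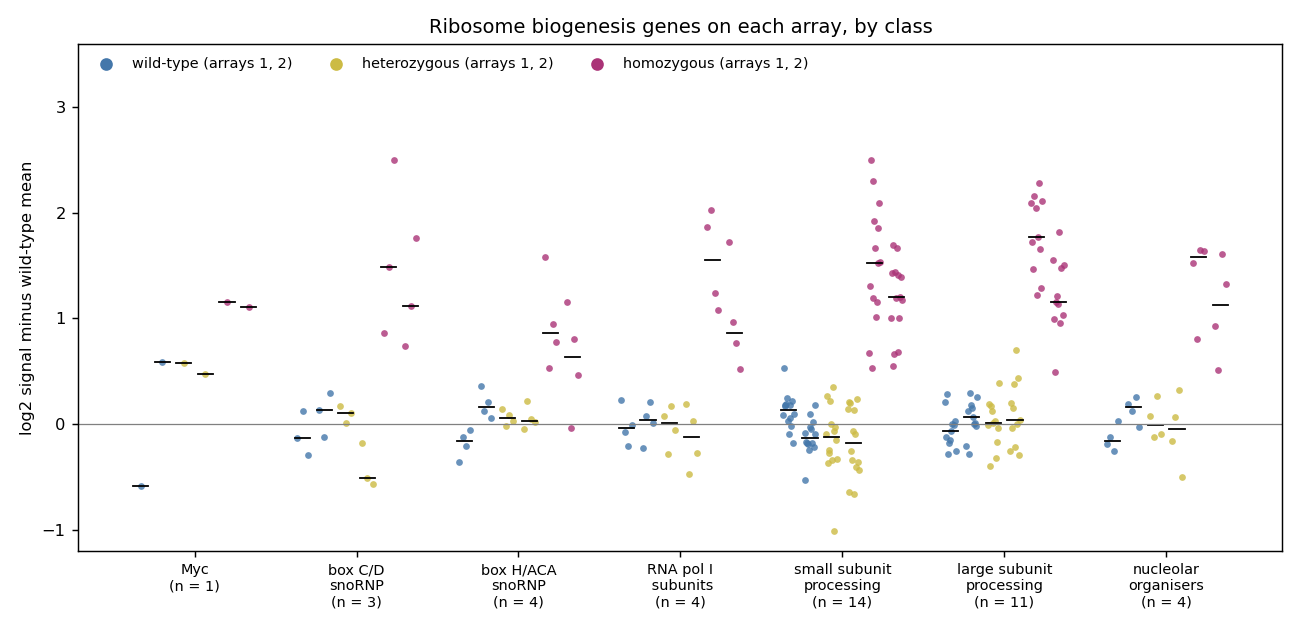
Log2 signal of each of the 41 genes minus its mean on the wild-type arrays (vertical axis), for each array (1, then 2, in each colour) within each class (horizontal axis); points are genes and bars are class medians. In every class the medians of both homozygous arrays lie above those of the other 4; for the box H/ACA snoRNP genes they are 0.86 and 0.64, beside 0.17 on the highest of the others.

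In homozygous minus wild-type cells, all 41 genes had a positive log2 difference, against 45.4% of the 10916 tested genes. The median was 1.36, with a range of 0.25 to 2.13, beside a median of -0.09 over all tested genes. For 40 genes both homozygous arrays lay above both wild-type arrays, as for 27.4% of tested genes (33.8% lay below in the same way), and for 29 the difference was at least 1, as for 8.86%. Polr1a, Wdr75 and Gnl3 passed limma's test with Benjamini-Hochberg adjustment over all tested genes at 0.05, all 3 higher. Of all tested genes 2.67% were called, 0.412% higher and 2.25% lower. At an unadjusted p under 0.05, 37 of the 41 were higher and 0 lower, with 11.7% of tested genes higher by the same rule. The count of 3 became 0 when any wild-type or heterozygous array was left out, and was 3 without homozygous array 1 and 30 without homozygous array 2. Calls over all tested genes also rose in the last settings, to 6.49% (1.15% higher) without homozygous array 1 and 24.8% (7% higher) without homozygous array 2.

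In homozygous minus heterozygous cells the difference was again positive for 41 of 41 genes (45.7% of tested genes), with a median of 1.38 and a range of 0.15 to 2.61, beside -0.08 over all tested genes. Both comparisons use the same homozygous arrays. Both homozygous arrays lay above both heterozygous arrays for 40 genes (28.2% of tested genes, with 34.2% below), and 30 differed by at least 1 (9.51%). Limma called 9 genes higher and 0 lower after adjustment, where 4.09% of tested genes were called, 0.87% higher and 3.22% lower. The 9 were Nop56, Polr1a, Rrp12, Wdr75, Bysl, Tsr1, Nop2, Ebna1bp2 and Ddx21. At an unadjusted p under 0.05 the number was 38, with 12.5% of tested genes higher. The count of 9 became 0 without any wild-type or heterozygous array, 7 without homozygous array 1 and 31 without homozygous array 2, where 7.3% (1.28% higher) and 26.6% (7.71% higher) of all tested genes were called.

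Heterozygous minus wild-type cells gave 0 calls by limma, among the 41 genes and among all 10916 (0%). At an unadjusted p under 0.05 there were 0 of the 41 and 71 of all tested genes (0.65%). The fit shares its estimate of spread over all groups. The mean within-pair variance was 0.877 in homozygous cells, beside 0.178 in wild-type and 0.154 in heterozygous cells. The errors of this comparison can therefore be too large, and 0 calls do not show that there was no difference. A fit of only these groups, with 2 arrays each, also called 0 genes. In both homozygous comparisons the shared estimate can instead make the errors too small. There, 3 of the 41 genes were called against wild-type and 9 against heterozygous cells. These counts were 0 and 2 with array weights per group, and 0 and 0 in fits of only the 2 groups compared. The differences of heterozygous minus wild-type cells had a median of -0.03 and ran from -0.55 for Nol10 to 0.52 for Myc, with 17 positive and 24 negative. Both heterozygous arrays lay above both wild-type arrays for Nop16 and Gnl3 (13.2% of tested genes did so), and below them for Polr1b, Polr1e, Rrp12, Utp15, Nol11, Tsr1, Ebna1bp2 and Ddx21 (12.8%).

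**Figure D2:**
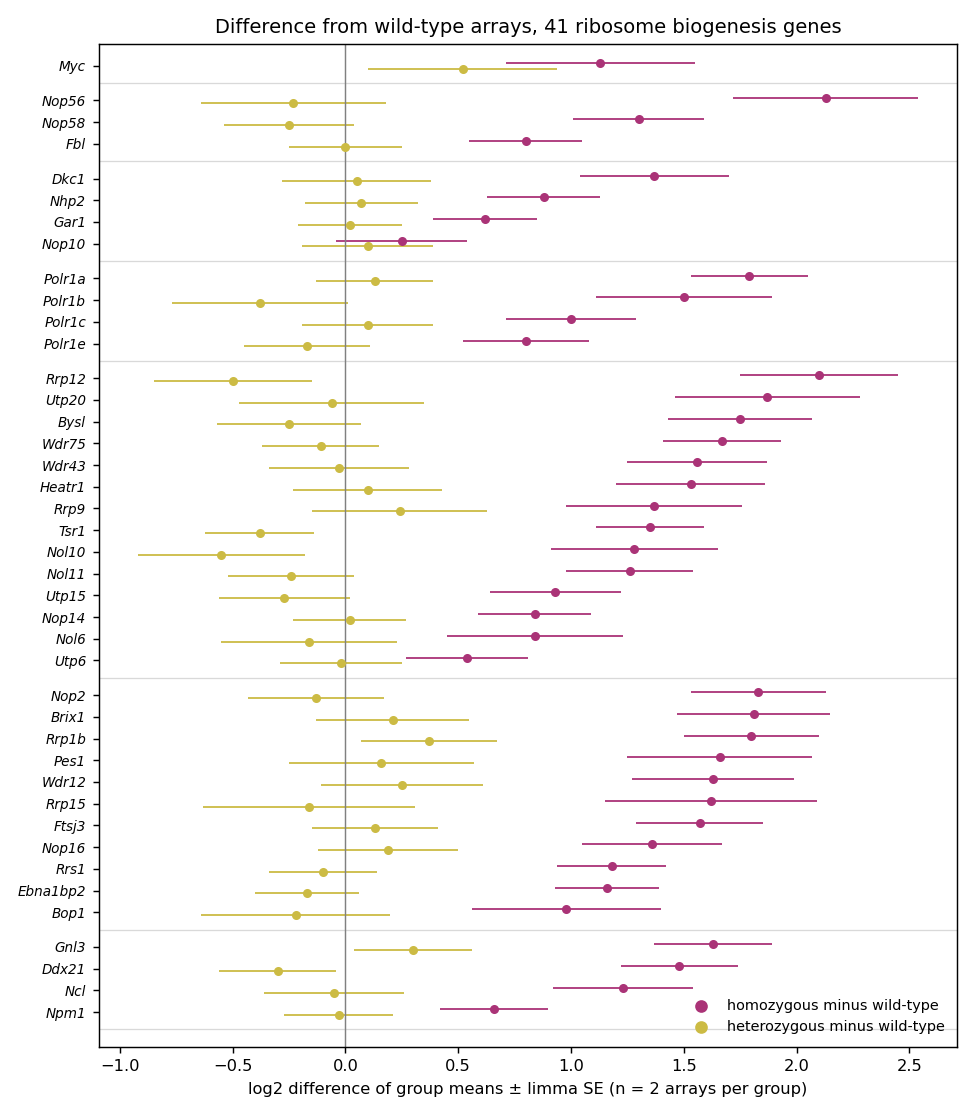
Log2 difference of group means (horizontal axis) with its limma standard error for each gene, ordered within class from Myc through box C/D, box H/ACA, RNA polymerase I, small subunit, large subunit and nucleolar genes; n = 2 arrays per group. The homozygous differences run from 0.25 (Nop10) to 2.13 (Nop56), and the heterozygous differences lie on both sides of 0, from -0.55 to 0.52.

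Myc, the transcription factor that drives many ribosome biogenesis genes, had signals of 542 and 1218 on the wild-type arrays, 1214 and 1125 on the heterozygous arrays, and 1814 and 1751 on the homozygous arrays. The homozygous arrays were the highest, and wild-type array 1 stood well below wild-type array 2, so that the wild-type pair spanned both heterozygous arrays. The log2 difference of homozygous minus wild-type cells was 1.13 ± 0.42 (SE, limma adjusted p = 0.155). That of homozygous minus heterozygous cells was 0.61 ± 0.42 (limma adjusted p = 0.364), and that of heterozygous minus wild-type cells was 0.52 ± 0.42 (limma adjusted p = 1). The last turned to -0.06 without wild-type array 1.

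The box C/D snoRNP proteins showed the largest spread between genes of a small class. Nop56, a scaffold protein of the particle, had signals of 1688 and 2540 on wild-type, 2223 and 1395 on heterozygous, and 11750 and 7026 on homozygous arrays. Its homozygous arrays were the highest, its wild-type and heterozygous signals overlapped, and its mean difference from wild-type was the largest of the 41. The difference was 2.13 ± 0.41 on the log2 scale from wild-type (4.39-fold, adjusted p = 0.0622 by limma) and Nop56 rose by 2.37 ± 0.41 from heterozygous cells (limma adjusted p = 0.0488). Nop58, its partner in the scaffold, had 2674 and 2262, 2474 and 1727, and 6873 and 5337 in the same order, again with the homozygous pair apart. Its difference from wild-type was 1.30 ± 0.29 (limma adjusted p = 0.0737). Fbl, fibrillarin, the enzyme that methylates ribose in the RNA, had 4449 and 5371, 5515 and 4319, and 8860 and 8152, a difference of 0.80 ± 0.25 (limma adjusted p = 0.12). Homozygous arrays stood above the other 4 for all 3 proteins, while the size went from 1.74-fold for Fbl to 4.39-fold for Nop56.

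The box H/ACA snoRNP genes had the smallest median difference of the classes of several genes, 0.75 from wild-type and 0.71 from heterozygous cells, and none of the 4 was called. Dkc1, dyskerin, the pseudouridine synthase of the particle, had 2437 and 3990 on wild-type, 3448 and 3020 on heterozygous, and 9355 and 6951 on homozygous arrays. It differed by 1.37 ± 0.33 from wild-type (limma adjusted p = 0.0841), the only member of its class past 1. Nhp2 had 5867 and 7815, then 7162 and 7009, then 13068 and 11836, and Gar1 had 2378 and 2565, then 2521 and 2494, then 4240 and 3414. Both are small core proteins of the particle, and in both the homozygous arrays were the highest, by 0.88 ± 0.25 for Nhp2 (limma adjusted p = 0.103) and 0.62 ± 0.23 for Gar1 (limma adjusted p = 0.155). Nop10, the smallest core protein, had 9130 and 10849 on wild-type, 9820 and 11550 on heterozygous, and 14418 and 9717 on homozygous arrays. It was the only one of the 41 genes whose groups overlapped in both homozygous comparisons, since homozygous array 2 lay between the wild-type arrays. Its difference from wild-type, 0.25 ± 0.29 (limma adjusted p = 0.592), was -0.03 without homozygous array 1.

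Among the RNA polymerase I subunits Polr1a and Polr1b had the largest differences. Polr1a, the largest and catalytic subunit, had signals of 350 and 255 on wild-type, 314 and 340 on heterozygous, and 1086 and 985 on homozygous arrays. The homozygous pair lay close together and far above the other 4 arrays. Polr1a rose by 1.79 ± 0.26 from wild-type (3.46-fold, limma adjusted p = 0.0425) and by 1.66 ± 0.26 from heterozygous cells (limma adjusted p = 0.0405). Polr1b, which forms the active centre with Polr1a, had 353 and 394, 306 and 268, and 1520 and 728, with a wide gap between the homozygous arrays, and differed by 1.50 ± 0.39 (limma adjusted p = 0.094). Polr1c, a subunit shared with RNA polymerase III, had 1207 and 1608, 1567 and 1423, and 3282 and 2364, a difference of 1.00 ± 0.29 (limma adjusted p = 0.106). Polr1e, a subunit that acts in initiation, had 394 and 397, 380 and 327, and 838 and 568, a difference of 0.80 ± 0.28 (limma adjusted p = 0.139). The homozygous arrays were the highest for all 4 subunits, and the heterozygous arrays were the lowest for Polr1b and Polr1e.

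**Figure D3:**
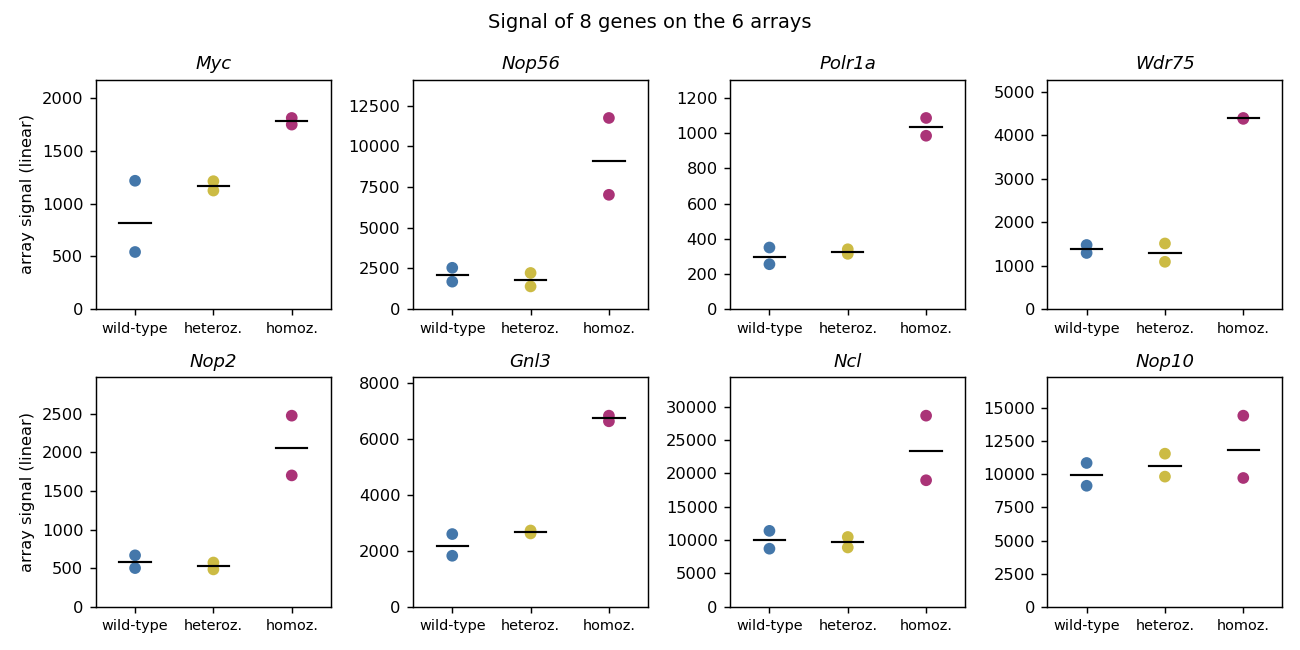
Linear array signal (vertical axis, starting at 0 and scaled separately for each gene) of 8 genes in wild-type, heterozygous (heteroz.) and homozygous (homoz.) cells; points are single arrays and bars are geometric means of 2 arrays. The homozygous points lie above all others for 7 genes and overlap them for Nop10, whose homozygous arrays gave 14418 and 9717.

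The 14 small subunit factors had a median difference of 1.36 from wild-type, from 0.54 for Utp6 to 2.10 for Rrp12, and of 1.54 from heterozygous cells. All 14 had homozygous arrays above both wild-type and both heterozygous arrays. Rrp12, which takes part in the export of ribosome precursors from the nucleus, had 140 and 111 on wild-type, 96.4 and 80 on heterozygous, and 706 and 405 on homozygous arrays. The homozygous arrays were the highest and the heterozygous arrays the lowest. Its difference from wild-type was 2.10 ± 0.35 (limma adjusted p = 0.0502), and it rose by 2.61 ± 0.35 from heterozygous cells (6.09-fold, limma adjusted p = 0.036), the largest of the 41 differences in that comparison.

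Wdr75, a component of the processing complex that also supports transcription by RNA polymerase I, had 1292 and 1476 on wild-type, 1089 and 1511 on heterozygous, and 4400 and 4379 on homozygous arrays. The homozygous arrays were nearly equal, and the other 4 overlapped. Wdr75 rose by 1.67 ± 0.26 from wild-type (3.18-fold, limma adjusted p = 0.0454) and by 1.77 ± 0.26 from heterozygous cells (limma adjusted p = 0.0398). Bysl, bystin, which acts late in small subunit maturation, had 644 and 828, 659 and 570, and 3119 and 1921 in the same order. It differed by 1.75 ± 0.32 from wild-type (limma adjusted p = 0.0575) and rose by 2.00 ± 0.32 from heterozygous cells (limma adjusted p = 0.0432). Tsr1, a GTPase-like factor bound to late small subunit precursors, had 2583 and 2258, 1916 and 1791, and 7003 and 5442, so its heterozygous arrays were the lowest. Its difference was 1.35 ± 0.24 from wild-type (limma adjusted p = 0.0566), and it rose by 1.74 ± 0.24 from heterozygous cells (limma adjusted p = 0.0383).

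Utp20, a scaffold of the small subunit processing complex, had 577 and 412 on wild-type, 567 and 384 on heterozygous, and 2405 and 1326 on homozygous arrays, a difference of 1.87 ± 0.41 from wild-type (limma adjusted p = 0.0703). The homozygous arrays differed widely from each other, and both were above the rest. At the other end of the class, Nop14 had 688 and 612, 606 and 716, and 1032 and 1300, and Utp6 had 1183 and 917, 879 and 1193, and 1504 and 1523. Both are members of the same processing complex, and the homozygous arrays were the highest for each, by 0.84 ± 0.25 (limma adjusted p = 0.11) and 0.54 ± 0.27 (limma adjusted p = 0.247). The remaining 7 small subunit factors, Rrp9, Utp15, Wdr43, Nol6, Nol10, Nol11 and Heatr1, differed from wild-type by 0.84 for Nol6 to 1.56 for Wdr43, and none was called.

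With the brightest probe set of each gene kept, the large subunit factors had the largest class median from wild-type, 1.62. Their range was 0.98 to 1.83 over 11 genes, and their median from heterozygous cells was 1.43. All 11 differed by more than 1 from heterozygous cells. A mean over probe sets lowered the difference from wild-type to 0.52 for Nop16, 0.60 for Pes1 and 0.89 for Brix1. For Rrs1 it raised the difference to 1.49. Class medians by that rule were not compared. Nop2, which methylates cytosine in the RNA of the large subunit, had 666 and 501 on wild-type, 573 and 484 on heterozygous, and 2473 and 1700 on homozygous arrays. The homozygous arrays lay far above the other 4, which overlapped. The difference from wild-type was 1.83 ± 0.30 (3.55-fold, limma adjusted p = 0.0502), and Nop2 rose by 1.96 ± 0.30 from heterozygous cells (limma adjusted p = 0.0409). Brix1, an assembly factor of the early large subunit precursor, had 1059 and 1503, 1651 and 1292, and 5472 and 3590, and differed by 1.81 ± 0.34 from wild-type (limma adjusted p = 0.0575). Rrp1b, a nucleolar protein of large subunit processing, had 612 and 671, 653 and 1044, and 2182 and 2267, and differed by 1.80 ± 0.30 (limma adjusted p = 0.0502). For Rrp1b the homozygous arrays were close to each other and heterozygous array 2 was above the other heterozygous array.

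Pes1, Bop1 and Wdr12 encode the proteins of the PeBoW complex, which processes the RNA of the large subunit. Pes1 had 603 and 900 on wild-type, 829 and 816 on heterozygous, and 3292 and 1646 on homozygous arrays, a difference of 1.66 ± 0.41 (limma adjusted p = 0.0857). Bop1 had 921 and 621, 573 and 735, and 2090 and 1063, a difference of 0.98 ± 0.42 (limma adjusted p = 0.195). Wdr12 differed by 1.63 ± 0.36 (limma adjusted p = 0.0707). In all 3 genes homozygous array 1 stood above homozygous array 2, and both stood above the other 4 arrays. Ebna1bp2, an assembly factor of the large subunit, had 1644 and 1591, 1575 and 1317, and 3955 and 3319. It differed by 1.16 ± 0.23 from wild-type (limma adjusted p = 0.0649) and rose by 1.33 ± 0.23 from heterozygous cells (limma adjusted p = 0.0491), but only by 0.23, without a call (limma adjusted p = 0.762), with the mean of its probe sets in place of the brightest. The remaining 5 large subunit factors, Nop16, Wdr12, Rrs1, Rrp15 and Ftsj3, differed from wild-type by 1.18 for Rrs1 to 1.63 for Wdr12, and none was called.

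Among the abundant nucleolar proteins, Gnl3, nucleostemin, a GTPase found in dividing cells and stem cells, had 1828 and 2605 on wild-type, 2627 and 2733 on heterozygous, and 6845 and 6644 on homozygous arrays. The homozygous arrays were nearly equal, and both heterozygous arrays lay just above wild-type array 2. Gnl3 rose by 1.63 ± 0.26 from wild-type (3.09-fold, limma adjusted p = 0.048) and differed by 1.33 ± 0.26 from heterozygous cells (limma adjusted p = 0.0572). Ddx21, an RNA helicase of the nucleolus, had 1131 and 1087, 1035 and 782, and 3464 and 2773. It differed by 1.48 ± 0.26 from wild-type (limma adjusted p = 0.0548) and rose by 1.78 ± 0.26 from heterozygous cells (limma adjusted p = 0.0398), whose arrays were the lowest. Ncl, nucleolin, which binds the ribosomal RNA precursor, had 8711 and 11387, 10466 and 8895, and 28652 and 18970, a difference of 1.23 ± 0.31 (limma adjusted p = 0.0873). Npm1, nucleophosmin, a chaperone of ribosome assembly, had 16038 and 19059, 16003 and 18262, and 30636 and 24889, a difference of 0.66 ± 0.24 (limma adjusted p = 0.157). Both had homozygous arrays above all others, with array 1 the highest.

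Most, but not all, probe sets of a gene had the same direction. For 28 of the 41 genes there were several probe sets, 70 in all, of which 63 lay above background on every array. Of these 63, 59 had a positive and 4 a negative difference of homozygous minus wild-type cells. The 4 belonged to Nop16, Pes1, Ebna1bp2 and Brix1, whose lowest probe set gave -0.32, -0.45, -0.11 and -0.03, while the brightest gave 1.36, 1.66, 1.16 and 1.81. From heterozygous to homozygous cells 61 were positive and 2 negative, the latter in Nop16 and Ebna1bp2. A mean over probe sets lowered the median of the genes from 1.36 to 1.19 and left 0 called against wild-type.

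Within groups the genes varied less than the genes of the array at large, most of all between the homozygous arrays. The SD of the log2 difference between both arrays of a group was 0.42 for the 41 genes and 0.60 for all tested genes in wild-type cells, 0.38 and 0.55 in heterozygous cells, and 0.38 and 1.30 in homozygous cells. Homozygous array 1 was higher than array 2 for 36 of the 41 genes, with a median difference of 0.43. The mean within-pair variance of all tested genes was 0.877 in homozygous cells and 0.178 and 0.154 in wild-type and heterozygous cells. Wild-type array 2 and heterozygous array 1 were the closest arrays of different groups, with an SD of 0.31 over all tested genes. Without both, 0 of the 41 genes were called in each comparison and the medians were 1.42 from wild-type and 1.39 from heterozygous cells.

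A wider list of ribosome biogenesis genes had mostly positive differences as well, and whether its median differs from that of the 41 genes was not tested. This list too was chosen with earlier results of these data known. Of 89 other genes of the pathway, 87 had a positive difference of homozygous minus wild-type cells (45.4% of tested genes), with a median of 1.02. Limma called 2 higher and 0 lower, where 0.412% of tested genes were called higher and 2.25% lower. Utp4, of the small subunit complex, rose by 1.73 ± 0.22 (limma adjusted p = 0.0342) and Wdr74, a large subunit factor, by 1.63 ± 0.23 (limma adjusted p = 0.0431). From heterozygous to homozygous cells 9 were called higher (0.87% of tested genes) and 0 lower (3.22%), with a median of 1.07. The largest of these rises were 2.27 ± 0.39 for Wdr46, 1.97 ± 0.28 for Ddx27, 1.86 ± 0.32 for Tbl3 and 1.85 ± 0.28 for Ppan. From wild-type to heterozygous cells 0 were called and the median was -0.03, with 38 positive and 51 negative.

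Genes of related machinery had medians nearer to 0 from wild-type to homozygous cells. The other 11 subunits and transcription factors of RNA polymerase I had a median of 0.11 from wild-type and 0.40 from heterozygous cells, with 0 called in either. At an unadjusted limma p under 0.05, 0 were higher in either comparison. By the same rule 0 were lower from wild-type and 1 from heterozygous cells (17.2% and 18.2% of tested genes lower). Ubtf, which binds the ribosomal DNA promoter, had 1609 and 1203 on wild-type, 1165 and 1206 on heterozygous, and 1610 and 1323 on homozygous arrays, and Rrn3, which recruits the polymerase, had 1286 and 1106, 949 and 1002, and 1607 and 1037. The wild-type and homozygous arrays overlapped for both. RNA polymerase III genes had a median of 0.41 over 13 genes, with 0 called. The 33 tested genes for proteins of the ribosome itself had a median of 0.13 from wild-type and 0.08 from heterozygous cells, with 0 called. Positive were 25 and 21 (45.4% and 45.7% of tested genes). Of 51 such genes listed, 34 had a probe set. At an unadjusted limma p under 0.05, 3 were higher from wild-type and 0 lower (11.7% of tested genes higher). They were Rpl12, Rps25 and Rpl14, with differences of 2.10, 1.70 and 1.19 and mean wild-type signals of 268, 784 and 427. These probe sets were dim beside the sums over the 34 genes, 603850 and 772151 on the wild-type arrays. Rps27, also dim with a mean wild-type signal of 267, differed by -0.23. Whether these medians differ from that of the ribosome biogenesis genes was not tested.

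MYC's partners and its targets outside the ribosome were examined beside Myc itself. The 11 genes of the MYC network had a median of -0.10 from wild-type, with 3 positive, 8 negative and 0 called. Mxd4, a repressor that competes with MYC for its partner, had 2510 and 1266 on wild-type, 1021 and 1837 on heterozygous, and 94.7 and 933 on homozygous arrays, a difference of -2.58 ± 1.11 (limma adjusted p = 0.197). Its homozygous arrays were the lowest and differed from each other by more than the other pairs did. Mxd4 was picked after its values were seen and had the lowest difference of the 11. In the same network Mxi1 differed by -1.15 ± 0.45 (limma adjusted p = 0.168), Mxd1 by -0.80, Mnt by -0.10 and Mxd3 by 0. Of 27 MYC targets with other functions, 25 had a positive difference from wild-type (45.4% of tested genes), with a median of 0.72. Limma called 2 higher and 0 lower, where 0.412% of tested genes were called higher and 2.25% lower. Cad, which starts pyrimidine synthesis, rose by 2.17 ± 0.35 and Phb2, a prohibitin of the mitochondrion, rose by 1.41 ± 0.23 (limma adjusted p = 0.0498). From heterozygous to homozygous cells 3 of the 27 were called, all higher (0.87% of tested genes). They were Cad, Phb2 and Srm, spermidine synthase, which rose by 1.86 ± 0.28 (limma adjusted p = 0.0404).

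**Figure D4:**
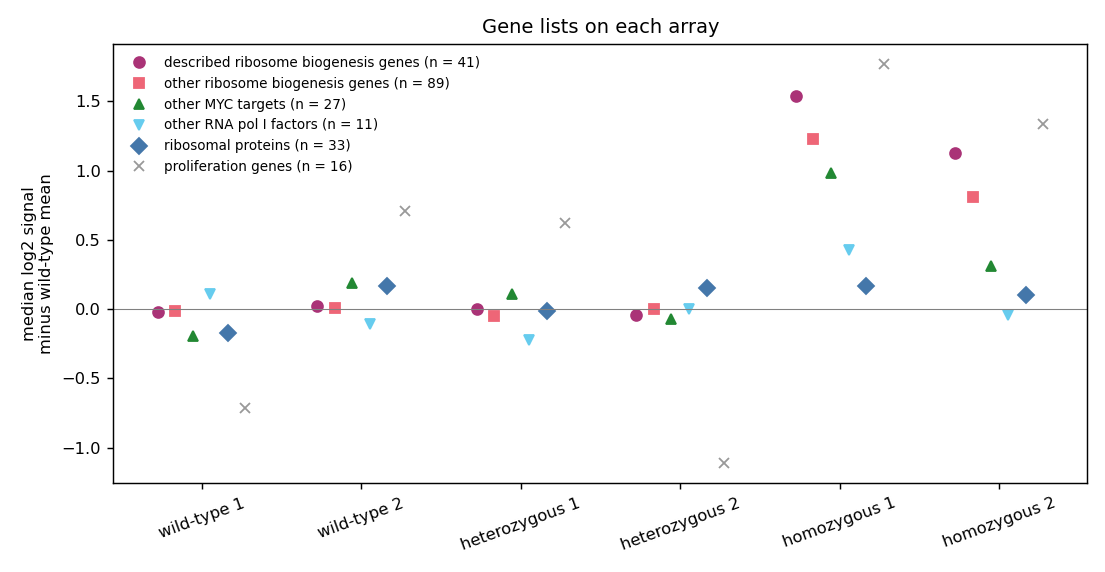
Median log2 signal minus the wild-type mean (vertical axis) of 6 gene lists on each of the 6 arrays (horizontal axis); each point is the median of a list on an array, with n the number of tested genes. The ribosome biogenesis genes stay between -0.04 and 0.02 on the 4 wild-type and heterozygous arrays, where the proliferation genes range from -1.11 to 0.71.

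Genes of cell division also had their highest median on the homozygous arrays, and that median differed between the arrays of the other groups more than the median of the ribosome biogenesis genes. The median of 16 proliferation genes relative to the wild-type mean was -0.71 and 0.71 on the wild-type arrays, 0.62 and -1.11 on the heterozygous arrays, and 1.77 and 1.34 on the homozygous arrays. All 16 were higher on wild-type array 2 than on array 1, by a median of 1.41, and all 16 were higher on heterozygous array 1 than on array 2, by a median of 1.59. Between the same arrays the median differences of the 41 ribosome biogenesis genes were 0.04 and 0.06, with single genes going both ways: 24 of 41 were higher on wild-type array 2 and 25 on heterozygous array 1. The SD of the difference over genes was much the same in both lists, 0.42 and 0.38 for ribosome biogenesis and 0.43 and 0.41 for proliferation genes. Between the homozygous arrays both lists were higher on array 1. The median difference was 0.52 for the proliferation genes, with 12 of 16 higher on array 1. It was 0.43 for the ribosome biogenesis genes, with 36 of 41 higher. The proliferation genes had a median difference of 1.46 from wild-type and 1.75 from heterozygous cells, beside 1.36 and 1.38 for the 41 genes. All 16 were positive in both comparisons (45.4% and 45.7% of tested genes), and 0 were called in either. At an unadjusted limma p under 0.05, 4 and 6 were higher (11.7% and 12.5% of tested genes). The part of proliferation in the difference of the homozygous arrays was not tested.

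Markers of the cells in the cultures moved with the homozygous arrays as well. The summed signal of 13 surface epithelium markers was 145081 to 206316 on the wild-type and heterozygous arrays, with none of the 13 at or under background, and 58741 and 69787 on the homozygous arrays, with 1 and 0. For 11 of the 13 both homozygous arrays lay below both wild-type arrays, as for 33.8% of tested genes. The exceptions were Krt18, with 6247 to 12233 against 25436 and 5623, and Lrrn4, with 7998 to 10776 against 1938 and 9900. The summed signal of 13 macrophage markers was 3332 and 2705 on wild-type, 5982 and 5742 on heterozygous, and 531 and 752 on homozygous arrays, with 6 and 8 of the markers at or under background on the homozygous arrays. That of 8 endothelial markers was 9208 to 11069 against 2022 and 2919. At or under background were 0 to 4 of these 8 on the wild-type and heterozygous arrays and 4 on each homozygous array. Most of the endothelial sum was Esam, with 6836 to 8168 against 1791 and 2610. Icam2 had 642 to 1403 against 4.66 and 4.85, and Kdr had 1104 to 2469 against 35.9 and 60.4. Eng, the other endothelial marker that passed the filter, had 103 to 136 against 127 and 164. Granulosa and theca markers summed to 3420 to 8338 against 288 and 1961, lymphocyte markers to 331 to 529 against 453 and 390, and fibroblast markers to 45514 to 65395 against 22866 and 88185. Of the controls of RNA quality, the log2 difference between the 3' and 5' probe sets of beta-actin was 0.66 to 0.96 on the wild-type and heterozygous arrays and 0.59 and 0.39 on the homozygous arrays. For Gapdh it was -0.13 to 0.01 against -0.18 and -0.12, so that the groups overlapped. The 5' control probe set of 18S ribosomal RNA gave 6696 on homozygous array 2, 21023 on homozygous array 1 and 16873 to 22559 on the other 4. The part of cell composition and RNA quality in the difference was not tested.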

How the data were processed

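Total RNA of 6 samples was labelled with biotin and hybridised to single-colour Affymetrix mouse arrays, per the labels' protocols. The authors deposited 1 intensity per probe set and array. RMA is named, without a version, in the submitters' processing notes. Deposited values are linear, with a trimmed mean (middle 96%) of 500 on every array, the form of MAS 5.0 signals; log2 was therefore taken with no offset and no further normalisation.

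Gene names came from the annotation of the array platform. Of 45101, 34958 named 1 gene symbol, 932 several and 9211 none; 34754 were matched to RefSeq by Entrez identifier. Per gene the probe set with the highest mean log2 signal was kept, and genes with a geometric mean signal of at least 60.3 (40th percentile) were tested. The highest of 18 values of bacterial control probe sets, 24.5, served as background. Median array signals were 41.1 to 60.6. Array data carry no counting depth, and 2 arrays per group limit the precision.

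Group means were fitted to all 6 arrays with limma 3.58.1 in R 4.3.3 (lmFit, eBayes; 3 residual and 2.26 prior degrees of freedom), without covariates, with Benjamini-Hochberg adjustment over all tested genes and calls under 0.05. Errors are limma standard errors. The procedure was tested on simulated data in which all groups had the same spread. The spread of these groups was unequal, so that test does not cover its effect on the calls. Promoter searches and figures used Python 3.11.15 and matplotlib 3.10.9.

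Members and lists were chosen with earlier results of these data known. Values on every array are given for Myc, for each gene called in any comparison, for the snoRNP, polymerase and nucleolar classes, and for the 4 largest and 2 smallest differences from wild-type among the small and the large subunit factors; from other lists the called genes, at most 4 per comparison. Mxd4, Ubtf and Rrn3 were added after their values were seen. So were the other single genes named from the MYC network, the ribosomal proteins, the surface epithelium markers and the endothelial markers. The transcript of the mutated gene was not analysed here.

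Replicate numbers did not pair the samples: deviations from group means of same-numbered arrays correlated at -0.303 (wild-type and heterozygous), -0.1 (wild-type and homozygous) and 0.155 (heterozygous and homozygous). Alternatives were another normalisation, filter, probe set rule, background treatment, offset, weighting, block or set of arrays.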

Additional observations from a re-analysis of the deposited data

How the results depend on the processing

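The median difference of the ribosome biogenesis genes ranged over 17 alternatives from 1.13 to 1.67 for homozygous minus wild-type, from 1.19 to 1.61 for homozygous minus heterozygous and from -0.11 to 0.05 for heterozygous minus wild-type cells. Quantile and median-centred arrays called 3 of the genes from wild-type, and 7 from heterozygous to homozygous cells; median-centring moved the median of all tested genes to 0.22 and 0.14. Counts of called genes depended on the setting, and are given for homozygous minus wild-type and then for homozygous minus heterozygous cells, where they were 3 and 9. They were 0 and 0 with no filter, where 18194 genes were tested, 15 and 18 of 37 tested under a 60th percentile filter, and 0 and 6 of 40 after averaging probe sets. They were 0 and 0 with only the 2 groups compared, 13 and 16 with signals raised to background, 17 and 20 with 32 added to each signal, and 0 and 2 with array weights per group. With the replicate block they were 0 and 0; crossing the numbers of the wild-type and heterozygous arrays, added after seeing the data, gave 0 called genes and 515 at an unadjusted p under 0.05, beside 0 and 212 with the same numbers as block. Leaving out each array in turn gave 0 to 30 and 0 to 31. Leaving out both wild-type array 2 and heterozygous array 1, also chosen after seeing the data, gave 0 and 0. No alternative called any of these genes in heterozygous minus wild-type cells. Over all tested genes the calls were 291 and 446, against 0 and 17 without a filter, 431 and 519 at the 60th percentile, 190 and 281 after averaging probe sets, 0 and 9 in fits of 2 groups, 666 and 798 with signals raised to background, 798 and 869 with 32 added, 194 and 293 with array weights, 0 and 19 with the replicate block, 708 and 797 without homozygous array 1, and 2703 and 2902 without homozygous array 2. The direction turned for Myc in heterozygous minus wild-type cells without wild-type replicate 1 (-0.06, limma adjusted p = 1; 1.11 without replicate 2) and for Nop10 in homozygous minus wild-type cells without homozygous replicate 1 (-0.03, limma adjusted p = 0.961; 0.53 without homozygous replicate 2). The causes were not tested. An arm left with a single array is assumed to vary like the others, and signals near background are the least precise.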
